A study of Mus musculus with 4 samples.

Results

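Collagens and laminins are the chains from which the extracellular matrix of the retina is assembled, and 35 of their genes were measured here in whole retinas of *rd7* and wild-type mice. They were chosen by symbol (Col or Lam followed by the chain number) among the rows of the deposited table that had status OK in all 4 libraries and a mean of at least 0.5 FPKM (fragments counted relative to transcript length and to the mapped reads of the library, so a level per length). Of 22095 rows, 51 carried such a symbol, none of them had a status other than OK, 16 lay under the level, and 35 (29 collagens and 6 laminins) passed. They were divided into 10 basement membrane genes, 9 fibrillar collagens and 16 other collagens. The choice used the mean over all libraries and not the difference between the genotypes. Genes near the minimum could still pass through the genotype in which they were higher. This held for *Col3a1* and *Col8a2*, with wild-type means of 0.409 and 0.410 FPKM. It also held for *Col19a1* and *Col16a1*, with *rd7* means of 0.358 and 0.496 FPKM. The RNA-seq compared 2 libraries of *rd7* retinas, which carry a mutation of the nuclear receptor gene *Nr2e3*, with 2 libraries of wild-type retinas, both with C57BL/6J as the labelled strain and at 3 weeks of age. Each library was made from a pool of 8 retinas, from 2 females and 2 males, so that the spread between replicates is a spread between pools. RNA came from whole retina, in which fewer cells of a type and less RNA per cell cannot be told apart.

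In a basement membrane, laminin trimers of an alpha, a beta and a gamma chain form a polymer that is anchored to the cell surface, and a network of type IV collagen lies over it. The retina has such sheets at its inner limiting membrane, which faces the vitreous and is touched by the endfeet of Müller glia, and around its blood vessels. Fibrillar collagens form long cross-linked fibres, which in the eye are best known from the vitreous, the sclera and the cornea. The other collagens form beaded filaments, hexagonal sheets or anchoring fibrils, sit on the surface of fibres, or span the cell membrane.

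The *Lamc1* gene, for the laminin gamma1 chain that most laminin trimers share, rose the most of the 35 genes, and 3 further collagen genes rose with it. *Col8a1* (a chain of a short-chain network collagen), *Col4a5* (a type IV chain) and *Col25a1* (a membrane-spanning collagen of neurons) were the other genes higher in *rd7* retinas. *Col7a1* (the chain of anchoring fibrils), *Col5a3* and *Col5a1* (chains of type V, a collagen that takes part in starting fibres) and *Col20a1* (a collagen of the fibril-associated class) were lower. The other 27 genes did not pass the test, which was limma on log2(FPKM + 0.1) over the 13681 genes that met the same status and level, with the Benjamini-Hochberg adjusted p at 5%. The 4 higher and 4 lower genes were each 11.4% of the 35. Of all genes tested, 35.0% were higher and 8.33% lower, and 43.3% were called in either direction against 22.9% of the collagen and laminin genes. The median log2 fold change was 0.09 over the 35 genes and 0.15 over all genes tested, so a change of 0.15 was the centre of these data.

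Promoters of 3 called genes with large changes, *Col8a1* among those that rose and *Col7a1* and *Col5a3* among those that fell, are shown because Nr2e3 and its partner Crx act at promoters of photoreceptor genes. Each run is the 250 bases before the annotated start in mm9, 5′ to 3′ on the strand of the gene, at chr16:57754851-57755100 (minus strand) for *Col8a1*, chr9:108855540-108855789 (plus) for *Col7a1* and chr9:20619479-20619728 (minus) for *Col5a3*. Capitals mark matches on either strand to the motifs searched, an Nr2e3 half-site (AAGTCA), a Crx site (TAATCC), a GC box (GGGCGG) and a CCAAT box (CCAAT).
Col8a1: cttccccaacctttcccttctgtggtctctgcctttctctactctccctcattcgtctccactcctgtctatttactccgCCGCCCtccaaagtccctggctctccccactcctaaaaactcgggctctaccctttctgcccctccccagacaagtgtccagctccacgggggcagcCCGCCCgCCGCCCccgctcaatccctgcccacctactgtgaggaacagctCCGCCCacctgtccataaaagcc
Col7a1: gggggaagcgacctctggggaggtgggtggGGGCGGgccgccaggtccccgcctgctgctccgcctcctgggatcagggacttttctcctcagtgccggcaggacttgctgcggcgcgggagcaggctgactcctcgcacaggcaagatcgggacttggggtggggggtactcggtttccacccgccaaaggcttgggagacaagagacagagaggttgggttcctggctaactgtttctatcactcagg
Col5a3: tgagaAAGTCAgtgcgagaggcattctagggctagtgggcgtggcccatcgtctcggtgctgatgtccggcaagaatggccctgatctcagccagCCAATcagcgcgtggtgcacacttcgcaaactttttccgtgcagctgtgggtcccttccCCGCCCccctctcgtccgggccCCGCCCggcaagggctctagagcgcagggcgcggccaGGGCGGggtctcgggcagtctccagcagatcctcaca
*Col8a1* held 4 matches to the GC box, *Col7a1* 1 and *Col5a3* 3, and *Col5a3* alone of these 3 held an Nr2e3 half-site and a CCAAT box. Over the 35 genes, the Nr2e3 half-site was in 2 promoters (5.71%) against 12.0% of 22362 promoters of the same length, and the Crx site was in 2 (5.71%) against 6.46%. The GC box was in 24 (68.6%) against 39.6%, and the CCAAT box in 12 (34.3%) against 35.0%. The 22362 promoters were those of protein-coding genes without a filter on level, so they were not matched to the 35 genes in level. A match is a run of letters and no evidence of binding.

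Depth was estimated from steps of FPKM times length in kb, taken only between 0.02 and 0.036, at 3.49e+07 to 3.56e+07 reads per library. This window bounds the estimate, so it cannot show that the libraries were equally deep. Replicate libraries correlated at r = 0.985 in *rd7* and 0.988 in wild-type over the genes tested. *Nr2e3* itself was at 2493 and 1589 FPKM in *rd7* and 385 and 394 FPKM in wild-type, a log2 fold change of 2.35 (limma, adjusted p = 0.00132), and the level of this RNA does not show whether its protein was made. Library *rd7* replicate 1 stood apart for the genes described here. It lay above *rd7* replicate 2 in 31 of the 35 genes (88.6%), against 52.6% of all genes tested, with a median log2 ratio of 0.37 against 0.01. The wild-type replicates had a median log2 ratio of 0.04, with replicate 1 above replicate 2 in 23 of 35. Over all genes tested the wild-type median was -0.02, with replicate 1 above in 5481 of 13681. The 35 genes thus also leaned to replicate 1 in wild-type, by a smaller median ratio than in *rd7*. *rd7* replicate 1 was the highest of the 4 libraries in 24 of the 35 genes, against 38.0% of all genes tested. For genes whose value moved most with this library, the value without it is given beside the result.

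**Figure D1:**
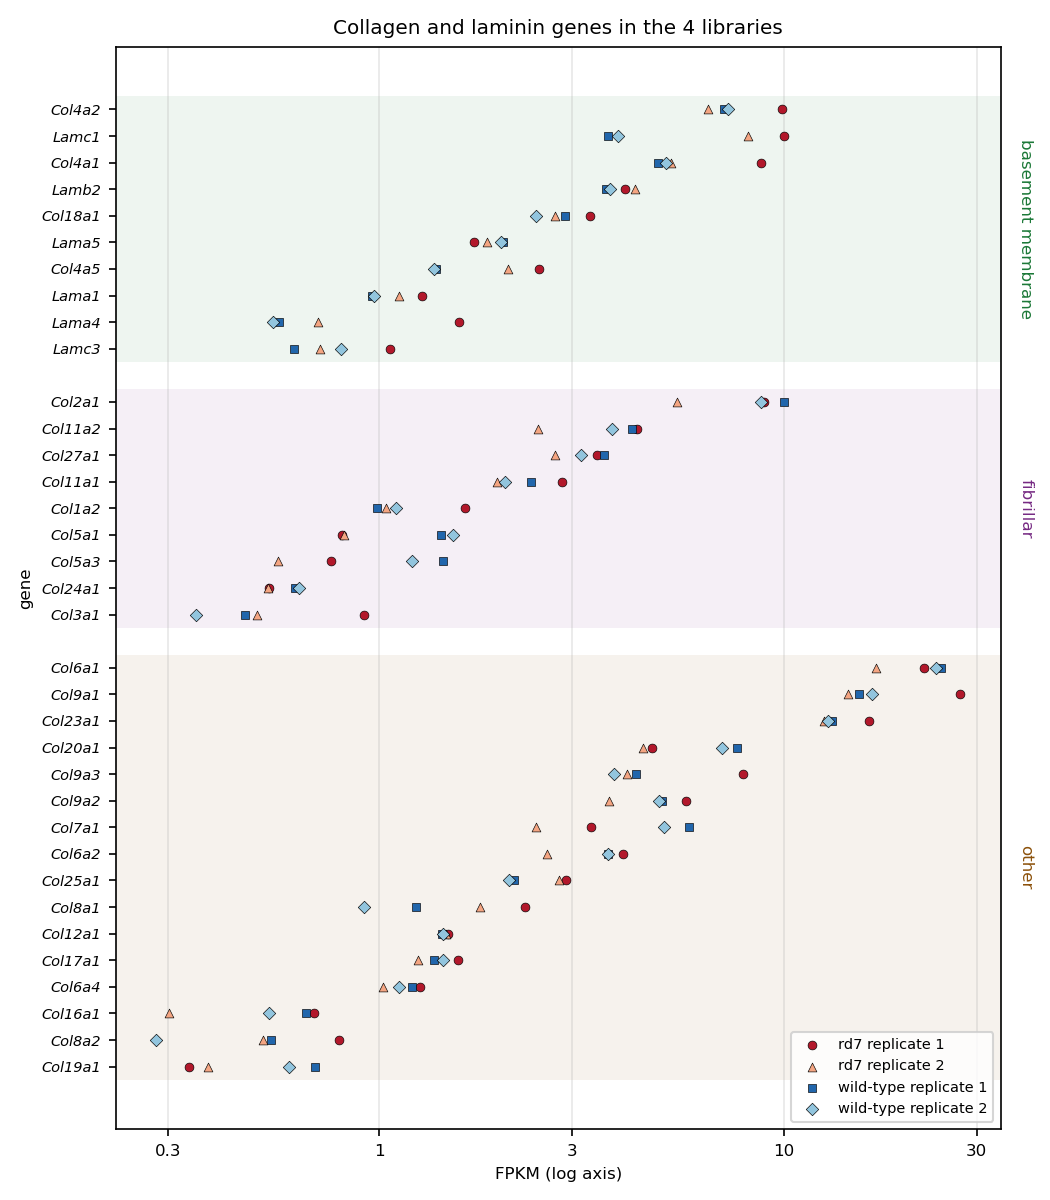
Level of each of the 35 genes in FPKM (log axis) in the 4 libraries, grouped by type, with red shades for *rd7* and blue shades for wild-type. *Col9a1* and *Col6a1* have the highest levels, and *rd7* replicate 1 lies above *rd7* replicate 2 in 31 of 35 genes.

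The levels spanned from *Col6a1* and *Col9a1*, at 16.9 to 24.5 FPKM and 14.4 to 27.4 FPKM, down to *Col19a1*, with a mean of 0.502 FPKM. The other genes just inside the minimum were *Col8a2* (0.533) and *Col16a1* (0.547), and the nearest outside it were *Col15a1* (0.477) and *Col13a1* (0.429). The basement membrane genes summed to 44.2 and 33.4 FPKM in *rd7* and 27.7 and 28.1 FPKM in wild-type. The fibrillar genes summed to 24.2 and 16.0 FPKM against 25.1 and 22.6 FPKM. The other genes summed to 103 and 70.7 FPKM against 88.8 and 86.1 FPKM. Only the basement membrane sum lay higher in both *rd7* libraries than in both wild-type libraries, among these 3 sums. Its share of the summed FPKM of the 35 genes was 25.8% and 27.8% in *rd7* against 19.6% and 20.6% in wild-type, and without *Lamc1* it was 21.2% and 22.5% against 17.4% and 18.2%. The fibrillar share was 14.1% and 13.4% against 17.7% and 16.5%, lower in both *rd7* libraries.

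Among the 10 basement membrane genes, 2 rose and none fell, against 35.0% and 8.33% of all genes, and their median log2 fold change was 0.28. The fold change was positive for 9 of the 10, against 69.2% of all genes tested (6 of the 10 with quantile normalization, and 5 with median-ratio scaling without *rd7* replicate 1), and the values of both *rd7* libraries lay above both wild-type libraries for 6 and below for 1. For the fibrillar genes the counts were 0 higher and 2 lower of 9, with a median of -0.20 and 3 positive fold changes. For the other collagens they were 2 higher and 2 lower of 16, with a median of -0.02 and 7 positive fold changes. The difference between the types was not tested, and the counts of genes called per type are small. Over the 35 genes, 10 lay in both *rd7* libraries above both wild-type libraries, against 55.8% of all genes, and 8 lay below, against 19.5% of all genes.

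Of the laminin genes, *Lamc1* was at 10.0 and 8.14 FPKM in *rd7* and 3.67 and 3.90 FPKM in wild-type. Both *rd7* libraries lay far above both wild-type libraries, which differed little from each other. The log2 fold change was 1.24 ± 0.11 (SE, n = 2 per genotype; 95% interval 0.96 to 1.51), or 2.35-fold, with a limma adjusted p of 0.00152. It was also called without any single library, with log2 fold changes from 1.09 to 1.38, and it was the only one of the 35 genes to be so. *Lamc1* lies at chr1:155066052-155179916 of mm9, on the minus strand.

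The other 5 laminin genes of the 35 did not pass the test. *Lamb2*, the beta2 chain of the retina and of synapses, was at 4.04 and 4.29 FPKM in *rd7* and 3.63 and 3.72 FPKM in wild-type, without overlap but with a log2 fold change of only 0.18 (limma, adjusted p = 0.121). *Lama4*, an alpha chain of vessel walls, was at 1.58 and 0.706 FPKM against 0.564 and 0.545 FPKM, with a log2 fold change of 0.83 (limma adjusted p = 0.114). It was 0.30 without *rd7* replicate 1 (limma adjusted p = 0.269) and 1.36 without *rd7* replicate 2 (adjusted p = 0.00262). *Lama1*, an alpha chain of the inner limiting membrane, was at 1.27 and 1.12 FPKM against 0.957 and 0.973 FPKM, also without overlap. *Lama5* was the one basement membrane gene with a negative log2 fold change (-0.16, limma adjusted p = 0.270), at 1.72 and 1.85 FPKM against 2.02 and 2.00 FPKM. *Lamc3*, another gamma chain, had overlapping groups from 0.617 to 1.07 FPKM, and its log2 fold change of 0.28 was 0.0179 without *rd7* replicate 1. The beta1 chain gene is listed under its older symbol *Lamb1-1*, which the symbol pattern does not take, and it was added here after its values were seen. It was at 6.17 and 4.75 FPKM in *rd7* and 3.69 and 4.09 FPKM in wild-type, with a log2 fold change of 0.47 ± 0.14 (SE, n = 2; limma adjusted p = 0.0391). This call was lost without *rd7* replicate 1 (0.28, limma adjusted p = 0.0618), wild-type replicate 1 (0.40, adjusted p = 0.229) or wild-type replicate 2 (0.54, adjusted p = 0.124). It was also lost with median-ratio scaling (0.32, limma adjusted p = 0.116), quantile normalization (0.27, adjusted p = 0.190), the GC and length correction (0.22, adjusted p = 0.278), no variance trend (adjusted p = 0.0713) and no filter on level (adjusted p = 0.217).

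*Lamc1* was also read relative to the beta chains it assembles with and to the other gamma chain, within each library. The ratio of *Lamc1* to *Lamb2* in FPKM came to 2.48 and 1.90 in *rd7* retinas against 1.01 and 1.05 in wild-type retinas. The ratio to *Lamb1-1* was 1.63 and 1.71 against 0.994 and 0.952, and the ratio to *Lamc3* was 9.42 and 11.4 against 5.95 and 4.85. All 3 ratios were higher in both *rd7* libraries, which is a description of unequal change within libraries and shows no gene as unchanged.

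**Figure D2:**
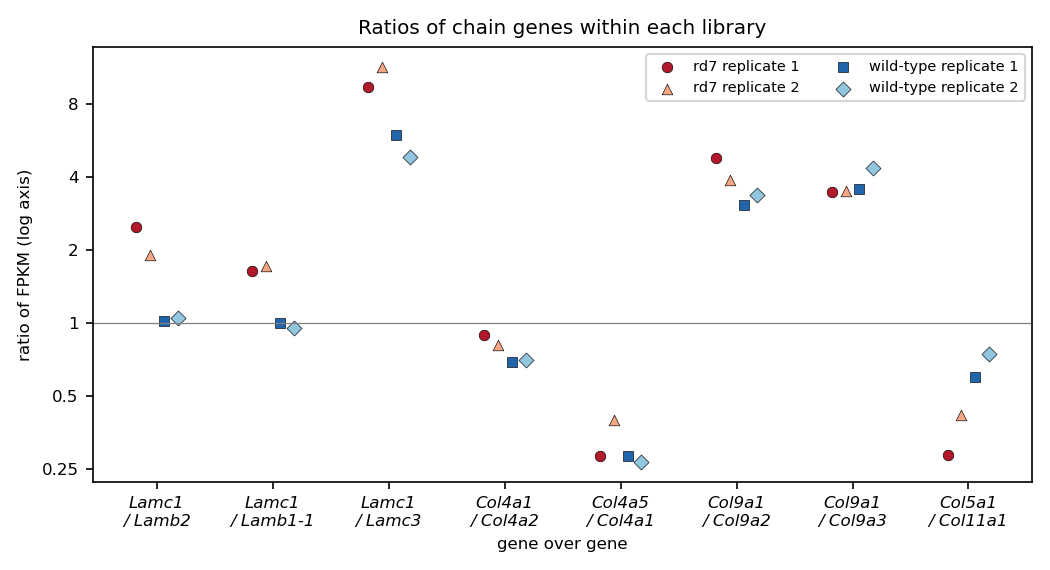
Ratio of the FPKM of pairs of chain genes within each of the 4 libraries (log axis). The ratio of *Lamc1* to *Lamb2* is 2.48 and 1.90 in *rd7* and 1.01 and 1.05 in wild-type, while the ratio of *Col5a1* to *Col11a1* lies lower in both *rd7* libraries, at 0.285 and 0.417 against 0.599 and 0.742.

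Of the type IV collagens, *Col4a1* and *Col4a2*, the chains of the network found in nearly all basement membranes, had the highest levels. *Col4a1* was at 8.78 and 5.27 FPKM in *rd7* and 4.89 and 5.12 FPKM in wild-type, with a log2 fold change of 0.44 that did not pass the test (limma adjusted p = 0.170). It was 0.0730 without *rd7* replicate 1 (limma adjusted p = 0.496) and 0.80 without *rd7* replicate 2 (adjusted p = 0.000778). *Col4a2* was at 9.91 and 6.50 FPKM against 7.13 and 7.28 FPKM, and its groups overlapped. The loci of this pair lie head to head on chromosome 8 with 2 bases between their starts. In both genes *rd7* replicate 1 held the high value, while the ratio of *Col4a1* to *Col4a2* was 0.886 and 0.810 in *rd7* against 0.685 and 0.702 in wild-type.

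*Col4a5* rose, with 2.48 and 2.08 FPKM in *rd7* and 1.38 and 1.36 FPKM in wild-type. Both wild-type values lay well below both *rd7* values. The log2 fold change was 0.69 ± 0.13 (SE, n = 2; 95% interval 0.37 to 1.01; limma adjusted p = 0.0102), and without *rd7* replicate 1 it was 0.57. It was not called without wild-type replicate 1 (0.70, limma adjusted p = 0.0902) or without wild-type replicate 2 (0.68, adjusted p = 0.0783). *Col4a5* lies at chrX:137909962-138123778 of mm9, next to *Col4a6*, whose start is 1342 bases away on the other strand. *Col4a6* was under the level minimum, at 0.416 and 0.418 FPKM in *rd7* and 0.284 and 0.279 FPKM in wild-type, so that both chains of this pair were higher in both *rd7* libraries. The third head-to-head pair, *Col4a3* and *Col4a4*, which make a network with *Col4a5*, was also under the minimum and lay lower in *rd7*. *Col4a3* was at 0.343 and 0.228 FPKM in *rd7* and 0.487 and 0.517 FPKM in wild-type. *Col4a4* was at 0.304 and 0.256 FPKM against 0.568 and 0.576 FPKM. These chains of type IV collagen therefore had fold changes of opposite sign, and those under the minimum were not tested. *Col18a1*, the source of endostatin, had overlapping groups from 2.45 to 3.32 FPKM.

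Of the fibrillar collagens, the type V chains fell. *Col5a1* was at 0.807 and 0.817 FPKM in *rd7* and 1.42 and 1.52 FPKM in wild-type. The replicates lay close together and the groups far apart, with a log2 fold change of -0.78 ± 0.14 (SE, n = 2; 95% interval -1.14 to -0.43; limma adjusted p = 0.00931). *Col5a3* was at 0.759 and 0.563 FPKM against 1.44 and 1.20 FPKM, a log2 fold change of -0.91 ± 0.20 (SE, n = 2; 95% interval -1.41 to -0.40; limma adjusted p = 0.0176). In both genes the groups did not overlap, and the level in wild-type was 1.72 and 1.87 times that in *rd7* on the log2(FPKM + 0.1) scale, which understates the change of low genes. Neither was called without wild-type replicate 1 (-0.83 for *Col5a1*, limma adjusted p = 0.0767, and -0.79 for *Col5a3*, adjusted p = 0.133) or without wild-type replicate 2 (-0.74, adjusted p = 0.0802, and -1.03, adjusted p = 0.0696). *Col5a1* lies at chr2:27741945-27895030 and *Col5a3* at chr9:20574494-20619478 of mm9. *Col5a2*, the third type V chain, was under the minimum and lay the other way, at 0.553 and 0.413 FPKM in *rd7* and 0.195 and 0.258 FPKM in wild-type.

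*Col2a1*, the chain of the main fibrillar collagen of the vitreous, had the highest level of the fibrillar genes, at 8.93 and 5.45 FPKM in *rd7* and 9.99 and 8.78 FPKM in wild-type. *rd7* replicate 1 lay among the wild-type values, and the log2 fold change of -0.42 did not pass the test (limma adjusted p = 0.179). Without *rd7* replicate 1 it was -0.77 and passed (limma adjusted p = 0.00200). *Col11a1* and *Col11a2*, the type XI chains that join type II fibres, had overlapping groups, as did *Col1a2* and *Col27a1*. *Col3a1*, a fibrillar chain of vessel walls and connective tissue, was at 0.918 and 0.4997 FPKM against 0.466 and 0.351 FPKM, with a log2 fold change of 0.63 that did not pass (limma adjusted p = 0.173), and it was 0.25 without *rd7* replicate 1 (adjusted p = 0.472) and 1.01 without *rd7* replicate 2 (adjusted p = 0.0211). *Col24a1* was at 0.535 and 0.531 FPKM against 0.619 and 0.632 FPKM, a log2 fold change of -0.20 that did not pass either (limma adjusted p = 0.468). *Col1a1*, the chain that pairs with *Col1a2* in type I collagen, was under the minimum at 0.144 to 0.180 FPKM. The ratio of *Col5a1* to *Col11a1* was 0.285 and 0.417 in *rd7* against 0.599 and 0.742 in wild-type, the reverse of the order seen for *Lamc1* to *Lamb2*.

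**Figure D3:**
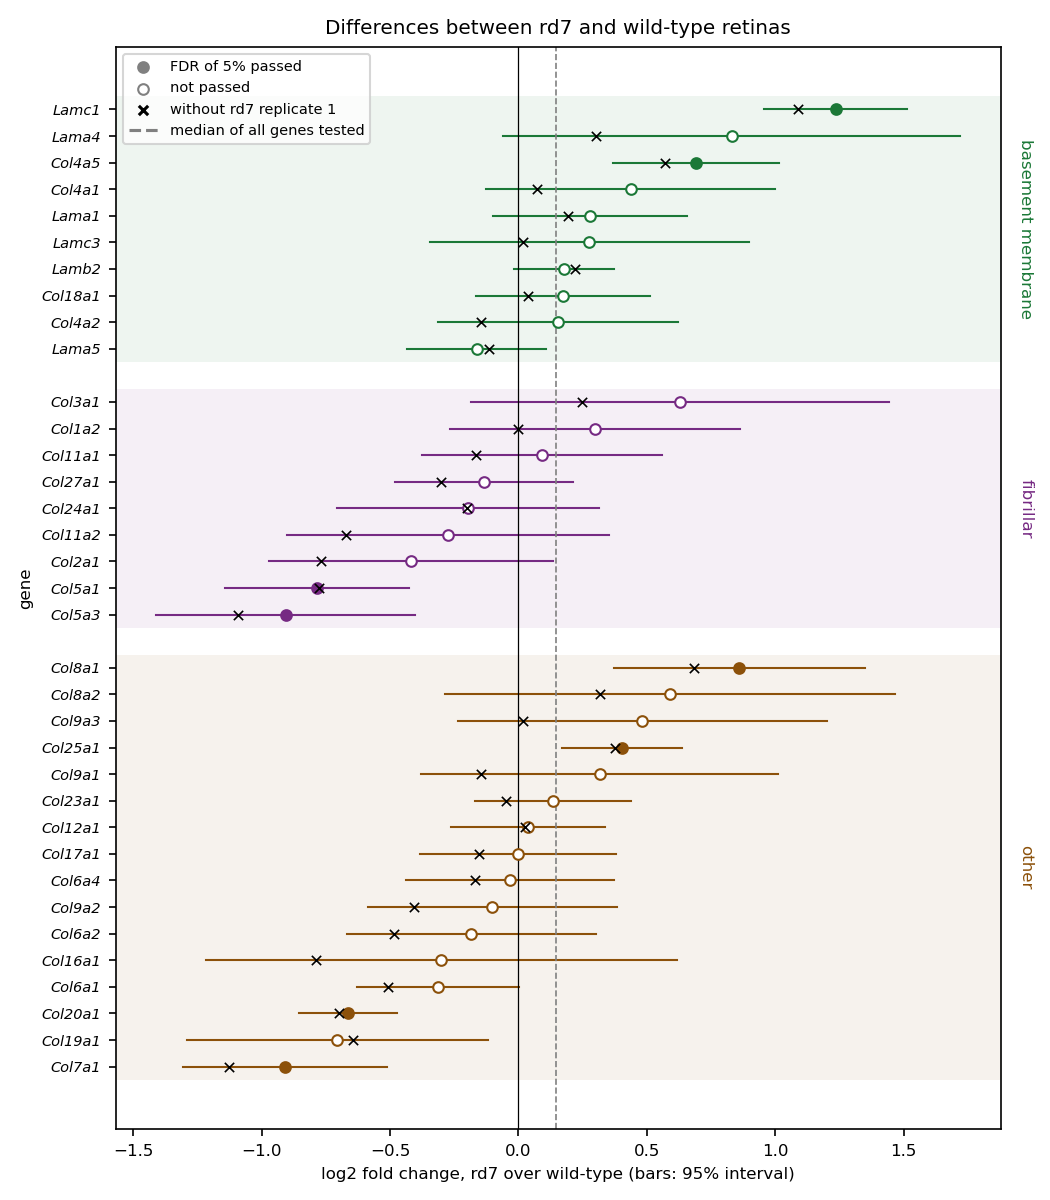
Log2 fold change of *rd7* over wild-type for each of the 35 genes, with the 95% interval from limma, ordered within type, with filled circles for genes called, open circles for the others and crosses for the value without *rd7* replicate 1. *Lamc1* has the highest estimate (95% interval 0.96 to 1.51), and *Col7a1* and *Col5a3* have the lowest estimates at -0.91.

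Of the other collagens, *Col7a1* fell, with 3.33 and 2.44 FPKM in *rd7* and 5.84 and 5.07 FPKM in wild-type. Each *rd7* value was below each wild-type value, and the log2 fold change was -0.91 ± 0.16 (SE, n = 2; 95% interval -1.31 to -0.51; limma adjusted p = 0.00825). *Col20a1* was at 4.72 and 4.50 FPKM against 7.68 and 7.04 FPKM, a log2 fold change of -0.66 ± 0.08 (SE, n = 2; 95% interval -0.85 to -0.47; limma adjusted p = 0.00268). Its replicates differed little in either genotype. *Col7a1* was not called without wild-type replicate 1 (-0.81, limma adjusted p = 0.0915) or 2 (-1.01, adjusted p = 0.0525), and *Col20a1* was not called without wild-type replicate 1 (-0.60, adjusted p = 0.0557). *Col7a1* lies at chr9:108855790-108886920 and *Col20a1* at chr2:180721240-180752244 of mm9. *Col19a1*, a low gene with interrupted triple helices that neurons also make, was at 0.338 and 0.377 FPKM against 0.694 and 0.599 FPKM. Its groups did not overlap, but the log2 fold change of -0.70 missed the threshold (limma adjusted p = 0.0581).

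*Col8a1* rose, with 2.29 and 1.77 FPKM in *rd7* and 1.23 and 0.918 FPKM in wild-type. The groups did not overlap, and the log2 fold change was 0.86 ± 0.20 (SE, n = 2; 95% interval 0.37 to 1.35; limma adjusted p = 0.0187). Without *rd7* replicate 1 it was 0.68, and it was not called without wild-type replicate 1 (1.05, limma adjusted p = 0.0636) or 2 (0.67, adjusted p = 0.110). *Col8a2*, its partner chain, was at 0.795 and 0.515 FPKM against 0.540 and 0.280 FPKM, and the groups overlapped. *Col25a1* was at 2.90 and 2.78 FPKM in *rd7* and 2.15 and 2.09 FPKM in wild-type. This was the smallest change called among the 35 genes, a log2 fold change of 0.40 ± 0.09 (SE, n = 2; 95% interval 0.17 to 0.64; limma adjusted p = 0.0196). It was not called without wild-type replicate 1 (0.42, limma adjusted p = 0.135) or 2 (0.39, adjusted p = 0.137). *Col8a1* lies at chr16:57624369-57754850 and *Col25a1* at chr3:129883796-130299335 of mm9.

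The remaining collagens did not pass the test with all libraries. The type VI chains, which form beaded filaments, were *Col6a1* at 22.2 and 16.9 FPKM in *rd7* and 24.5 and 23.7 FPKM in wild-type, *Col6a2* from 2.60 to 3.998 FPKM and *Col6a4* from 1.02 to 1.26 FPKM. *Col6a1* did not overlap between genotypes, with a log2 fold change of -0.31 (limma adjusted p = 0.0955), and it was -0.51 and called without *rd7* replicate 1 (limma adjusted p = 0.00125). *Col6a3* was not analysed here. The type IX chains sit on type II fibres, and *Col9a1* was at 27.4 and 14.4 FPKM against 15.3 and 16.5 FPKM. Here *rd7* replicate 1 stood far above the other 3 libraries, and the same was seen for *Col9a3*, at 7.91 and 4.10 FPKM against 4.31 and 3.81 FPKM. Without *rd7* replicate 1 the log2 fold change went from 0.32 to -0.14 for *Col9a1* and from 0.48 to 0.0178 for *Col9a3*. *Col9a2* was at 5.72 and 3.71 FPKM against 5.004 and 4.90 FPKM. The type IX genes therefore differed more between the 2 *rd7* pools than between the genotypes. *Col12a1* was nearly level across the libraries at 1.43 to 1.48 FPKM, and *Col17a1*, *Col23a1* and *Col16a1* had overlapping groups.

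The gap between the *rd7* pools ran through all 3 types. The median log2 ratio of *rd7* replicate 1 to 2 was 0.29 for basement membrane genes, 0.51 for fibrillar genes and 0.38 for other collagens, and the largest was 1.06, for *Lama4*. Without *rd7* replicate 1, 4 of the 35 genes were higher and 10 lower, against 36.9% and 11.4% of all genes, and the median log2 fold change was -0.14. The genes called lower then were *Col2a1*, *Col5a1*, *Col5a3*, *Col11a2*, *Col6a1*, *Col6a2*, *Col7a1*, *Col9a2*, *Col16a1* and *Col20a1*. Without *rd7* replicate 2, 12 were higher and 5 lower, against 39.3% and 10.6% of all genes, and the median was 0.20. Genes called higher then included *Col4a1*, *Col4a2*, *Lama4*, *Col3a1* and *Col9a1*. Without wild-type replicate 1, only *Lamc1* was called, against 5.61% of all genes higher and 0.914% lower. Without wild-type replicate 2, *Lamc1* was called higher and *Col20a1* lower, against 12.0% and 1.79% of all genes. The counts of collagen and laminin genes called thus rested on which library was kept. The order of the types by median, with the basement membrane genes highest and the fibrillar genes lowest, was seen both without *rd7* replicate 1 (0.13, -0.30 and -0.16 for the other collagens) and without *rd7* replicate 2 (0.49, 0.03 and 0.17).

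**Figure D4:**
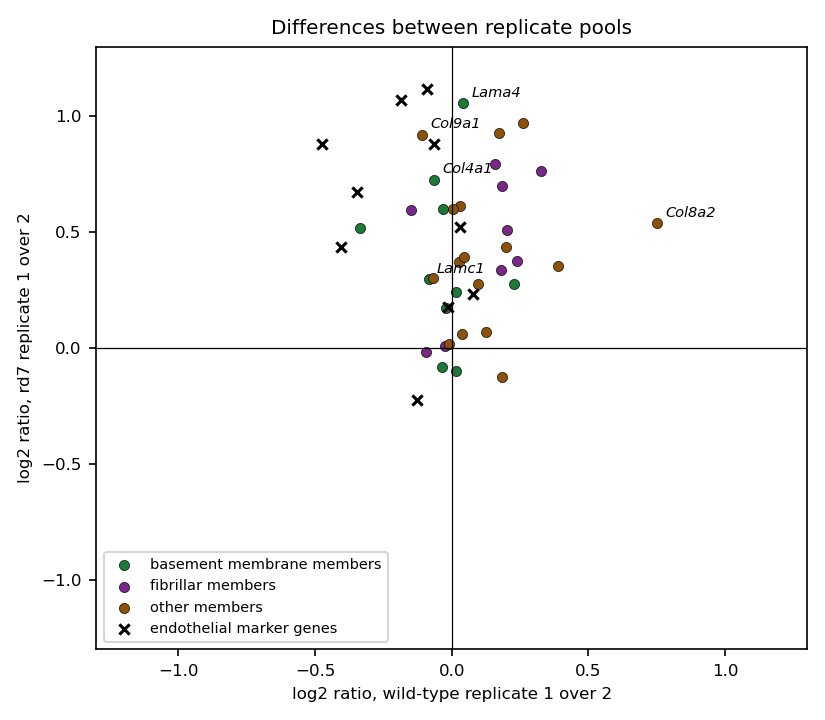
Log2 ratio of replicate 1 over replicate 2 in *rd7* (vertical) against wild-type (horizontal) for the 35 genes, coloured by type, with endothelial marker genes as crosses. The *rd7* ratios lie above 0 for 31 of 35 genes with a median of 0.37, and the wild-type ratios centre near 0.04.

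Marker genes of other cells and tissues were read in the same libraries, beside 35.0% of all genes higher and 8.33% lower (18.4% and 18.2% with median-ratio scaling). Endothelial markers, 10 of 10 tested, summed to 72.3 and 54.2 FPKM in *rd7* and 45.8 and 48.7 FPKM in wild-type, with 1 higher (*Kdr*) and none lower. Pericyte and smooth muscle markers, 6 of 9 tested, summed to 43.6 and 30.8 FPKM against 21.4 and 23.9 FPKM, with 3 higher (1 with median-ratio scaling), among them *Rgs5* with a log2 fold change of 0.99. Both lists, like the collagens and laminins, were higher in *rd7* replicate 1 than in *rd7* replicate 2. This held for 9 of 10 and 6 of 6 genes, against 52.6% of all genes tested. So did 9 of 10 ganglion cell markers and 6 of 7 pigment epithelium markers. The counts were 3 of 3 for ciliary markers and 9 of 10 for matrix receptor genes. They were lower for Müller glia (4 of 10), fibroblast (1 of 4), rod (2 of 7) and astrocyte markers (2 of 4). The part of these cells in the result was not tested. Ciliary and vitreous markers, 3 of 6 tested, summed to 6.05 and 4.59 FPKM against 4.87 and 5.11 FPKM with none called, and *Optc*, which encodes opticin of the vitreous, was at 1.89 to 2.71 FPKM. Fibroblast and scleral markers, 4 of 10 tested, summed to 37.3 and 34.1 FPKM against 35.7 and 41.0 FPKM, with 2 higher, or 0 higher and 1 lower with median-ratio scaling. Of this list, *Kera* was at 0 in all 4 libraries and *Lum* at 0.012 to 0.013 FPKM. The 4 tested were *Mgp* at 21.5 to 30.4 FPKM, *Prelp* at 6.67 to 8.35, *Pdgfra* at 2.03 to 2.86 and *Fmod* at 0.858 to 1.13 FPKM. Pigment epithelium and melanocyte markers, 7 of 11 tested, summed to 76.6 and 63.8 FPKM against 44.9 and 33.8 FPKM, with 5 higher (3 with median-ratio scaling) and none lower.

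Markers of Müller glia, 10 of 10 tested, were higher in 6 and lower in none (5 and 1 with median-ratio scaling), and *Car2* had a log2 fold change of 1.16. Reactive glia markers, 8 of 9 tested, summed to 37.9 and 93.0 FPKM in *rd7* against 29.1 and 29.9 FPKM in wild-type, with 3 higher, or 7 without *rd7* replicate 1 and 2 with median-ratio scaling. These genes ran against the collagens and laminins within *rd7*, since none of the 8 was higher in *rd7* replicate 1 than in *rd7* replicate 2. Blood markers (0 of 5) and lens markers (1 of 7) leaned the same way as the reactive glia markers. Astrocyte markers had 2 higher of 4 tested (1 with median-ratio scaling), ganglion cell markers 1 of 10 (0 higher and 1 lower with that scaling), and lens markers none of 7. Rod markers fell in 4 of 7 and blood markers in 3 of 5. The 5 blood entries include 2 for *Hba-a1*, with log2 fold changes of -0.99 and -2.21, and only that of -2.21 was called.

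Other genes that make, bind or cut these matrix proteins were read against the 35.0% of all genes called higher and 8.33% called lower. Of 24 genes of collagen biosynthesis tested, 10 were higher and none lower, with a median log2 fold change of 0.25. Among them were *Plod2*, a lysyl hydroxylase that prepares collagen for cross-linking (0.48), *Loxl1*, a lysyl oxidase (0.54), and *Tll1*, a procollagen processing protease (0.56). Of 11 further basement membrane genes, 4 were higher and none lower, with *Ntn4*, a netrin that binds the laminin gamma1 chain, at 0.74 and *Sparc*, a collagen-binding protein, at 0.49. Of 10 matrix receptors, *Dag1*, which encodes the laminin receptor dystroglycan, had a log2 fold change of 0.78 and *Itgb1*, the integrin beta1 chain, 0.50, and none fell. Of 13 matrix proteases and inhibitors, 9 were higher and none lower, with *Adamts4* at 1.22. With median-ratio scaling, where 18.4% of all genes were higher and 18.2% lower, the 4 lists in this order had 3, 2, 2 and 8 genes higher, with 1 protease or inhibitor lower.

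The genes that rose and those that fell differed in base composition. Exonic GC content was 45.2% to 51.6% in the 4 higher genes and 57.9% to 60.6% in the 4 lower genes, and 44.4% to 62.3% in the 27 that were not called. The median over the 35 genes was 56.3%, against 50.1% over all genes, with a median exonic length of 6831 bases against 3702. Across the 35 genes, which share their libraries, log2 fold change and GC content had r = -0.46 and rho = -0.50. Across the 13226 genes tested that had a GC content, the values were r = -0.29 and rho = -0.42. After a correction for GC content and length fitted over all genes, 2 of the 35 genes were higher and 5 lower, against 11.5% and 14.0% of all genes. *Lamc1* and *Col4a5* were the higher genes then, while *Col8a1* (0.59, limma adjusted p = 0.0861) and *Col25a1* (0.07, adjusted p = 0.612) were not called. *Col20a1*, *Col5a1*, *Col5a3* and *Col7a1* remained called lower, with log2 fold changes of -0.69, -0.85, -0.95 and -0.96. *Col19a1* joined them at -0.98. The part of base composition in the differences was not tested further.

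**Figure D5:**
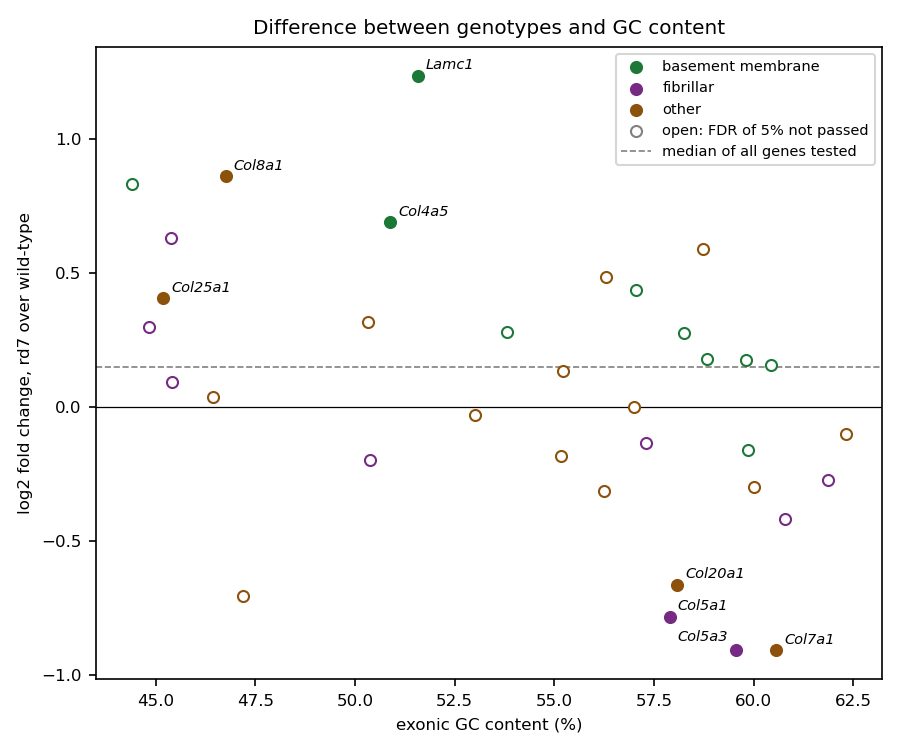
Log2 fold change of *rd7* over wild-type against exonic GC content for the 35 genes, coloured by type and filled where called, with the dashed line at the median of all genes tested. The 4 genes called higher have a GC content of at most 51.6%, and the 4 called lower of at least 57.9%.

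Scaling by the median ratio, which shifted the centre of all genes from a log2 fold change of 0.15 to -0.0044, gave 3 higher and 6 lower of the 35 genes, against 18.4% and 18.2% of all genes. *Lamc1*, *Col4a5* and *Col8a1* were called higher under it, and *Col25a1* (0.26, limma adjusted p = 0.0807) was not. *Col19a1* (-0.83) and *Col6a1* (-0.47) joined the 4 lower genes. With both this scaling and *rd7* replicate 1 left out, 2 of the 35 were higher and 15 lower, against 20.6% and 21.8% of all genes.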

How the data were processed

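The authors sequenced 4 retinal libraries on a shared lane, mapped the reads to mm9 with TopHat 1.4.1 and obtained the deposited FPKM from Cufflinks 1.3.0, with a value for every gene in each library, as their methods and processing notes give it. A second table holds the authors' own Cuffdiff comparison and was not used. No counts were used here, so depth was estimated from the smallest steps of FPKM times length, within a preset window that bounds the estimate. Rows with status OK in all libraries and a mean of at least 0.5 FPKM were tested on log2(FPKM + 0.1) with limma 3.58.1 in R 4.3.3 (variance trend, two-sided, Benjamini-Hochberg, 5%), after a check of the procedure on simulated data. The pseudocount understates changes of low genes. An exact permutation test of 2 against 2 libraries cannot go below p = 0.333, so none was run. The pools are separate samples per the labels. The p-values, SE and intervals rest on the spread between pools, which limma moderated towards a trend over all genes tested. They are therefore not the spread of a gene's own pools alone. GC content, length and strand came from GENCODE vM1 on NCBIM37, the same build as mm9. In the GC correction, 455 genes without a match were left out. Loci (first base counted as 1) were those deposited with the FPKM, and the promoters of the members were cut from them. The promoters they were set against were cut from GENCODE gene starts, so the starts of these sets came from different sources. Motifs and summaries were computed in Python 3.11.15. *Lamb1-1* and *Emid2* were paired with their current symbols through RefSeq synonyms. Whether counting used strand is not given in the sources used here. *Col9a3* shares 227 bases with *Tcfl5* on the other strand, and no other member overlaps a gene other than a microRNA listed at 0. All 35 members are named or given in a range, and some items are not reported here. From the pathway and marker lists at most 3 called genes with the largest change were named, plus *Nr2e3*. Defining markers at or near 0, the fibroblast and scleral markers tested and *Optc* were given after their values were seen. The members, lists and tests were chosen with earlier results of these data known. Alternatives were other pseudocounts, filters, scalings, a GC and length correction, a replicate block, and leaving out each library.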

Additional observations from a re-analysis of the deposited data

How the results depend on the processing

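*Lamc1* was called higher under every alternative, and *Col20a1* and *Col5a1* were called lower wherever they were tested with all 4 libraries at 5%. The replicate numbers did not pair the libraries (their deviations correlated at r = -0.0454), and the replicate block gave 4 higher and 6 lower of the 35 genes against 4 and 4, and 12 marker genes lower. Leaving out 1 library at a time gave 1 to 12 members higher and 0 to 10 lower (basement membrane 1 to 5 and 0 to 0, fibrillar 0 to 2 and 0 to 4, other 0 to 5 and 0 to 6), 767 to 5379 of all genes higher and 125 to 1556 lower, 1 to 33 matrix pathway genes higher and 0 to 1 lower, and 5 to 36 marker genes higher and 2 to 13 lower. The lone library of a genotype is then assumed to vary like the other genotype, and the low ends came from fits with 1 wild-type library. Counts are given next as members higher and lower, then by type, all genes, pathway genes and marker genes where they moved by more than 1.5 times. With no filter on level, more genes entered the fit, but the members counted stayed the same 35. The counts were then 1 and 2, with basement membrane 1 higher, fibrillar 1 lower, and other 0 and 1. The counts for all genes were 2249 and 455, with pathway 9 higher, and markers 3 and 1. With a mean of 5 FPKM or more, where fewer genes were tested, they were 1 and 1, with basement membrane 1 higher, fibrillar 0 lower, other 0 and 1, and pathway 15 higher, and with a mean of 1 or more fibrillar 1 lower. With the GC and length correction 2 members were higher, with other 0 higher, all genes 1524 and 1858, pathway 11 and 1, and markers 12 higher, and with the replicate block added other 1 higher, all genes 1455 and 1721, pathway 12 and 1, and markers 15 higher. With median-ratio scaling other collagens were 1 and 4, all genes 2511 and 2495, pathway 15 and 1, and markers 13 higher, and with quantile normalization 1 and 4, 2404 and 2449, 11 and 1, and 12. At an FDR of 1%, 1 member was higher, with basement membrane 1 higher, fibrillar 1 lower, other 0 higher, all genes 2497 and 430, pathway 12 higher, and markers 10 and 4. Median-ratio scaling without *rd7* replicate 1, chosen after seeing the data, gave 2 and 15, with basement membrane 1 lower, fibrillar 5 lower, other 0 and 9, all genes 2820 and 2985, pathway 16 and 4, and markers 15 lower. No member called with all libraries changed direction. Among the others, log2 fold changes changed sign with median-ratio scaling (*Col11a1* -0.0568, *Col12a1* -0.11, *Col23a1* -0.0179), quantile normalization (*Col11a1* -0.11, *Col12a1* -0.15, *Col18a1* -0.0279, *Col23a1* -0.0238, *Col4a2* -0.0184, *Lamb2* -0.0329), the GC and length correction with or without the block (*Col11a1* -0.24, *Col12a1* -0.28, *Col1a2* -0.0470), a pseudocount of 1 (*Col17a1* 0.00098), and the setting chosen after seeing the data (*Col11a1* -0.31, *Col12a1* -0.11, *Col18a1* -0.11, *Col1a2* -0.14, *Col23a1* -0.20, *Col4a1* -0.0719, *Col4a2* -0.29, *Col9a1* -0.29, *Col9a3* -0.13, *Lamc3* -0.11). On leaving out 1 library they ran from -0.16 to 0.35 for *Col11a1*, -0.67 to 0.12 for *Col11a2*, -0.79 to 0.19 for *Col16a1*, -0.15 to 0.15 for *Col17a1*, -0.000385 to 0.60 for *Col1a2*, -0.0504 to 0.32 for *Col23a1*, -0.30 to 0.0336 for *Col27a1*, -0.15 to 0.45 for *Col4a2*, -0.48 to 0.12 for *Col6a2*, -0.17 to 0.11 for *Col6a4*, -0.14 to 0.78 for *Col9a1* and -0.41 to 0.20 for *Col9a2*. The cause was not tested. Of the 35 genes, the thinnest value was that of *Col8a2*, at 44.8 reads by the same bounded depth estimate.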

Other observations

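Of the collagen genes named here, the one with the largest change lay outside the symbol pattern. *Emid2*, the older symbol of *Col26a1*, which encodes a short collagen with an EMI domain, was at 0.322 and 0.315 FPKM in *rd7* and 2.00 and 2.02 FPKM in wild-type. The replicates were almost level and the groups far apart, with a log2 fold change of -2.33 ± 0.17 (SE, n = 2; limma adjusted p = 0.000945), or 5.03-fold lower. It lies at chr5:137217634-137358977 of mm9 on the minus strand and was named after its values were seen.

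The 16 genes under the level minimum were not tested. Those in which both *rd7* libraries lay below both wild-type libraries included *Col4a3*, *Col4a4*, *Col15a1* and *Lamb3*. Those in which both *rd7* libraries lay above included *Col4a6*, *Col5a2* and *Lama2*. *Lamb3* was near the floor, at 0.0372 and 0.0442 FPKM in *rd7* and 0.0546 and 0.0476 FPKM in wild-type. Its lowest value stood for 5.75 reads by the bounded depth estimate. *Col15a1*, a collagen of vessel and muscle basement membranes, was at 0.400 and 0.412 FPKM in *rd7* and 0.616 and 0.481 FPKM in wild-type. *Lama2*, the alpha2 laminin chain, was at 0.510 and 0.352 FPKM against 0.216 and 0.324 FPKM.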
